A study of Mus musculus with 12 samples.

Results

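The liver transcriptome after 30 days of caloric restriction (CR) was read from 6 RNA-Seq libraries of the 12 in the series. They were chosen by diet and day alone, and comprise 3 libraries from CR mice, here CR10, CR11 and CR12, and 3 from control (Con) mice, here Con10, Con11 and Con12. The other 6 libraries, 3 Con and 3 CR at day 25, share the model and serve the comparison between the days. All mice were male C57Bl/6J animals, 6 weeks old at the start and housed singly. Con mice ate the NIH41 diet ad libitum, and CR mice received a fortified NIH41 diet with 30% fewer calories, given once a day at midday. By the study's methods, the ration was adjusted each week to hold body weight near a set share of that of Con mice, and mice were given heavy water in the days before they were killed. The hour of killing and the time since the last meal are not given in the sources used here, so restriction and meal timing cannot be told apart for any gene below. The labels number the samples of a group without naming the animals, and p-values therefore measure the spread between these samples.

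The liver stores and releases glucose, makes and burns fat, breaks down amino acids, makes bile acids and secretes most plasma proteins, and its transcripts follow nutrient supply. Insulin, glucagon, glucocorticoids and the daily clock shift the genes of these pathways. In rodents the liver also differs between the sexes, because pulses of growth hormone in males and a steadier level in females set the expression of many P450 and pheromone-carrier genes.

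Levels are given as FPKM, a count of exon reads scaled to the length of the exons and to the size of the library. A log2 fold change is the difference between CR and Con in mean log2(FPKM + 1), and is given ± its standard error from the limma model, with 3 mice per group. The added 1 makes the fold change of a gene near 0 smaller than the ratio of its FPKM. Depth at day 30 was 19449087 to 23345543 reads per library, recovered from the steps between low FPKM values. The 6 libraries were alike, with correlations of log2(FPKM + 1) of 0.985 to 0.989 within a group and 0.948 to 0.973 between groups. Albumin took 6.64% to 8.37% of exon reads in Con mice and 10.2% to 12.9% in CR mice, and every other FPKM of a library shares the same total. The tissue label held, since the summed FPKM of 7 hepatocyte markers was 36087 to 45041 in Con mice and 53056 to 64209 in CR mice, while 5 kidney markers summed to 0.014 or less. Markers of sinusoidal endothelium summed to 35.7 to 39.0 in Con mice and 47.7 to 54.0 in CR mice, and those of stellate cells and fibroblasts to 77.7 to 98.9 and 122 to 139.7. Kupffer cell markers overlapped, at 33.9 to 50.4 and 33.9 to 45.2. In whole liver, fewer cells of a type and less RNA per cell cannot be told apart.

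At day 30, 234 genes passed both thresholds, an adjusted p under 0.1 and a log2 fold change of 1 or more in either direction, with 98 of them higher and 136 lower under CR. These are 0.925% and 1.28% of the 10593 genes tested, or 2.21% in all. In 231 of the 234 the ranges of the CR and Con mice did not overlap, which held for 36.4% of all genes tested. The 234 were selected on the same values, so their lack of overlap is no added support. Without a minimum fold change, 2619 genes passed an adjusted p under 0.1, or 24.7% of all genes, with 882 higher (8.33%) and 1737 lower (16.4%). Most of these changes were small, and 88.02% of all genes lay within 0.5 of 0 on the log2 scale. How the calls divided by direction changed with the scaling of the libraries. The split was 1319 to 1238 with median-ratio scaling, 1252 to 1217 with quantile normalization and 847 to 2013 with TPM. The median of all genes was -0.07 as deposited, and these scalings moved it by 0.07, 0.07 and -0.04. The number passing an adjusted p under 0.1 fell to 1497 without CR10, and 1208 of the 2619 genes passed in each of the 6 fits that left out a day 30 library. The counts below use an adjusted p under 0.1 with no minimum fold change, and the shares of 8.33% and 16.4% are the background against which the members of each gene list are to be read.

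**Figure D1:**
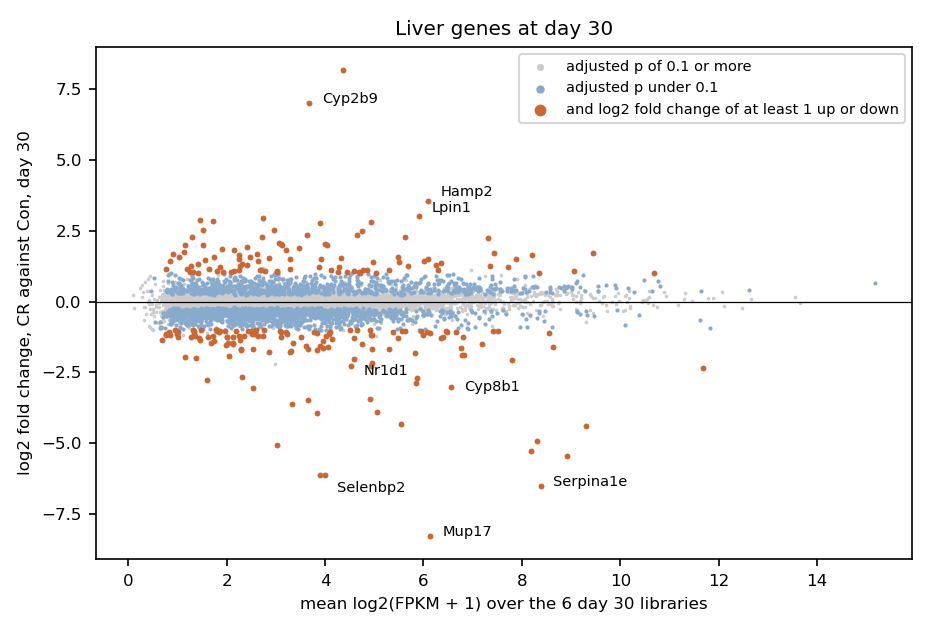
Log2 fold change of CR against Con at day 30 (vertical axis) by mean log2(FPKM + 1) over the 6 day 30 libraries (horizontal axis) for the 10593 genes tested, 1 point per gene. The 234 genes past both thresholds are in orange, the other genes with an adjusted p under 0.1 in blue and the rest in grey; Cyp2b9 is among the highest points and Mup17 is the lowest.

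In all, 47 lists holding 1394 gene symbols were examined. Of these symbols, 1393 were in the table, 1279 were tested because 3 or more of the 12 libraries reached an FPKM of 1, and 114 stayed below that filter. In 36 of the 47 lists the share of members called was above the 24.7% of all genes, so a share above that level was common among the lists.

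**Figure D2:**
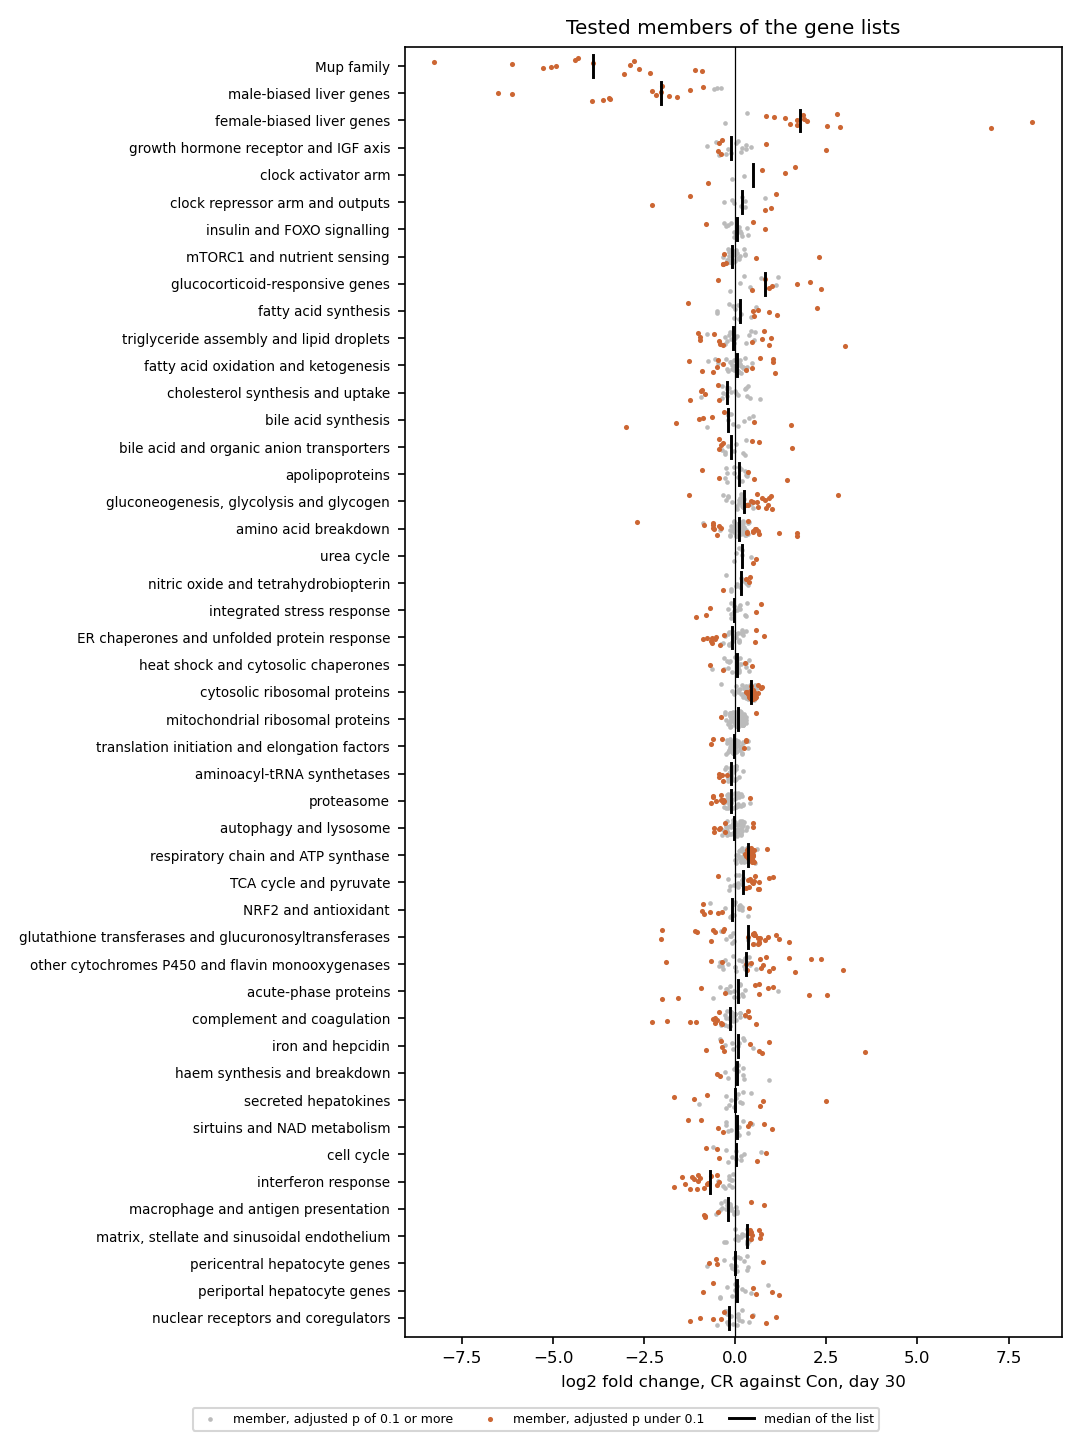
Log2 fold change of CR against Con at day 30 (horizontal axis) for each tested member of the 47 gene lists (rows). Orange points passed an adjusted p under 0.1, grey points did not, and the black bar is the list's median, which was -3.896 for the Mup genes at the top and 1.78 for the female-biased genes 2 rows below.

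The largest changes at day 30 lay in genes known to differ between male and female liver. All 15 tested major urinary protein (Mup) genes, which encode pheromone carriers secreted into urine, were lower under CR, with a median log2 fold change of -3.896. Another 6 Mup genes were under the filter. Mup17 (chr4:61591931-61595832 of mm10) had FPKM of 872, 2018 and 1050.4 in Con mice and 2.102, 2.99 and 4.25 in CR mice, 422-fold lower by the group means (log2 fold change -8.26 ± 0.52, adjusted p = 4.8e-06), and the ranges of the groups lay far apart. Mup20, the male pheromone darcin, had 1546, 4203 and 3697 in Con mice and 65.4, 192 and 199 in CR mice (log2 fold change -4.399 ± 0.49, adjusted p = 1.7e-04). Mup3, the most abundant of those named here, had 6271, 8548 and 7507 in Con mice and 922, 2532 and 1321 in CR mice (log2 fold change -2.34 ± 0.36, adjusted p = 0.0014). The log2 fold changes of Mup7, Mup9, Mup11, Mup14 and Mup21 were -5.28, -5.07, -4.92, -6.12 and -4.32, and Gm2083, a predicted gene of the same cluster on chromosome 4, fell by 5.45. These genes are near-identical copies, and the counting could have split or moved reads between them, so the fall is firmer for the family than for any 1 gene.

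Male-biased genes outside the Mup family went the same way. Of 17 tested members, 14 were lower and none was higher, with a median of -2.05. Serpina1e (chr12:103946932-103956897), a copy of the alpha-1-antitrypsin gene, had FPKM of 3986, 3119 and 2627 in Con mice and 6.81, 121 and 44.3 in CR mice (log2 fold change -6.51 ± 0.94, adjusted p = 0.001). Selenbp2, a selenium-binding protein with a close copy, had 90.1, 189.8 and 135 in Con mice and 0.357, 1.99 and 0.713 in CR mice (log2 fold change -6.13 ± 0.88, adjusted p = 9.7e-04). In both genes CR10 was the lowest and CR11 the highest CR mouse, and neither CR range reached the Con range. Elovl3, an elongase of very long fatty acids, had 60.9, 60.4 and 45.1 in Con mice and 1.42, 4.56 and 2.61 in CR mice (log2 fold change -3.94 ± 0.38, adjusted p = 7.6e-05). Cyp4a12a, which hydroxylates arachidonic acid and is induced by androgen, fell by 3.45 with CR values of 1.75, 18.1 and 13.6 against 80.98, 139 and 85.3 in Con mice. Cyp2d9, a steroid hydroxylase, had 757, 712 and 611 in Con mice and 177, 317 and 203 in CR mice (log2 fold change -1.61 ± 0.27, adjusted p = 0.0023). Cyp7b1, an oxysterol and steroid hydroxylase, had 73.4, 213 and 76.5 in Con mice and 23.5, 34.2 and 31.8 in CR mice (log2 fold change -1.81 ± 0.37, adjusted p = 0.00654). Bcl6, a repressor of female-biased genes, was uneven within both groups, at 9.41, 4.14 and 22.3 in Con mice and 2.36, 19.5 and 5.47 in CR mice, and fell short of the threshold (log2 fold change -0.49 ± 0.63, adjusted p = 0.621). The call of Hsd3b5, a steroid-reducing enzyme, with a log2 fold change of -3.62, was lost without Con11 or CR10, and that of Slco1a1, an organic anion carrier (-2.16), without Con11, Con12 or CR10.

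Most female-biased genes above the filter rose. Of 16 tested members, 14 were higher and none was lower, with a median of 1.78. Genes near 0 in Con mice could pass the filter through CR libraries alone, so these counts favour rises. With 6 libraries required at an FPKM of 1, 12 of 13 were higher. Another 7 members were under the filter. Sult3a1 had 3.51, 0.899 and 1.261 in CR mice. Cyp3a41a, Cyp3a41b, Cyp3a44, Sult2a1, Sult2a2 and Hao2 had at most 0.352 in any day 30 mouse. Cyp2b9 (chr7:26173409-26210660), a steroid-metabolizing P450, had FPKM of 0.157, 0.025 and 0.214 in Con mice and 196, 127 and 121 in CR mice (log2 fold change 7.01 ± 0.33, adjusted p = 4.0e-07), from 6, 1 and 9 reads in Con mice to 8547, 4603 and 5258 in CR mice. It was thus near 0 in each Con mouse and abundant in each CR mouse. Cyp2a4, a testosterone hydroxylase, had 0.201, 0.275 and 0.156 in Con mice and 7.90, 8.33 and 2.92 in CR mice (log2 fold change 2.51 ± 0.25, adjusted p = 8.2e-05). Cux2, a female-specific transcription factor, had 0.139, 0.057 and 0.145 in Con mice and 5.69, 2.98 and 2.19 in CR mice (log2 fold change 1.98 ± 0.54, adjusted p = 0.0261, lost without CR10). A1bg, a plasma glycoprotein, had 0.081, 0 and 0.073 in Con mice and 2.93, 1.62 and 2.76 in CR mice (log2 fold change 1.69 ± 0.16, adjusted p = 7.2e-05). Acot3, a peroxisomal thioesterase, rose by 2.78 ± 0.43 and Cyp17a1, which makes androgen precursors, by 1.88 ± 0.49. Cyp2b13 was uneven, at 41.01, 2.92 and 1.49 in CR mice against 1, 0 and 0 reads in Con mice. The Cyp2a and Cyp2b genes have close copies with which reads could be shared.

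**Figure D3:**
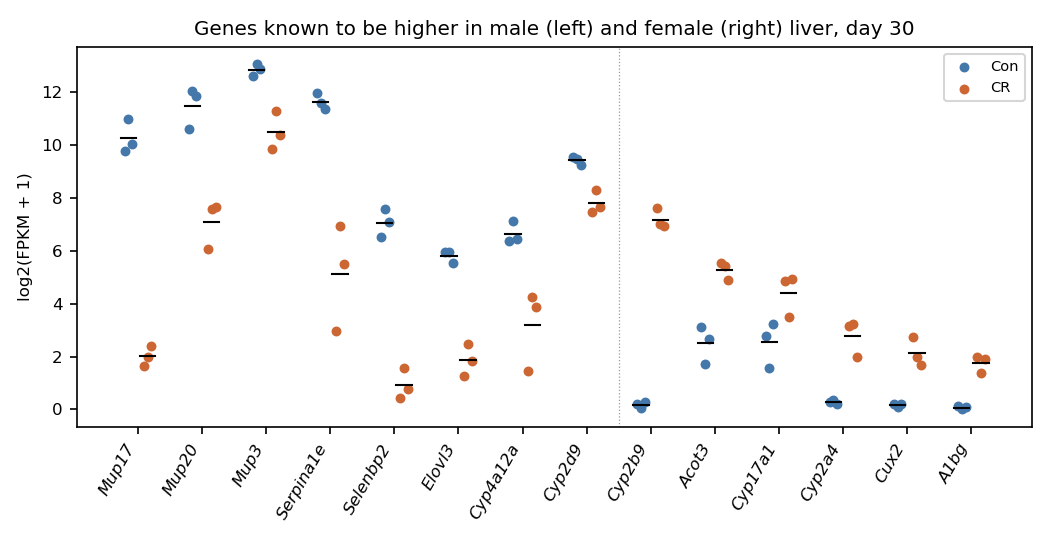
Level of 14 sex-biased genes in each day 30 mouse as log2(FPKM + 1) (vertical axis), with Con mice in blue, CR mice in orange and a black bar at each group mean (3 mice per group). The 8 male-biased genes on the left are lower in each CR mouse than in each Con mouse, and the 6 female-biased genes on the right are higher.

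Transcripts of the growth hormone and IGF axis that passed went in both directions, and Igf1 and Ghr were not among them. Of 19 tested genes of the growth hormone receptor and IGF axis, 2 were higher and 4 lower, with a median of -0.11. Igf1, the growth factor induced by growth hormone, had FPKM of 63.2, 90.1 and 78.4 in Con mice and 76.3, 88.4 and 92.7 in CR mice, overlapping groups (log2 fold change 0.16 ± 0.17, adjusted p = 0.56). Ghr, the receptor, had 139, 136 and 136 in Con mice and 84.5, 119.9 and 101 in CR mice, all 3 CR mice below the Con mice, and just missed the threshold (log2 fold change -0.44 ± 0.17, adjusted p = 0.101). Stat5b, the transcription factor it activates, was at -0.11 ± 0.12. The largest change was that of Igfbp1, a binding protein that rises in fasting and when insulin is low, with 10.3, 6.88 and 15.7 in Con mice and 103, 36.2 and 67.6 in CR mice (log2 fold change 2.49 ± 0.50, adjusted p = 0.00634). Prlr, the prolactin receptor, rose by 0.86 ± 0.25 (adjusted p = 0.0381, lost without Con11 or CR12). The 4 falls were 1 without CR10 or Con10, 2 without CR12 and 2 with median-ratio scaling, and the rises 1 without CR12. Of 26 nuclear receptors and coregulators, 3 were higher and 5 lower (3 without CR10 or Con10). Esr1, the oestrogen receptor, had 3.62, 3.097 and 3.52 in Con mice and 7.396, 10.4 and 7.95 in CR mice (log2 fold change 1.11 ± 0.17, adjusted p = 0.00155). Thra, a thyroid hormone receptor, fell from 10.4, 6.98 and 10.99 to 3.25, 3.65 and 3.25 (log2 fold change -1.23 ± 0.15, adjusted p = 4.0e-04), and Nr3c2, the mineralocorticoid receptor, by 0.97 ± 0.15. The 9-base pattern TTCNNNGAA, the core that STAT5 binds, was found on either strand in the 250 bases before the start of 2 of 12 male-biased and 1 of 11 female-biased genes with a matched RefSeq promoter, against 5.95% of 7545 promoters.

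Among genes that respond to glucocorticoids, those that passed were higher but for 1. Of 15 tested, 7 were higher and 1 lower, with a median of 0.82. Fkbp5, a co-chaperone of the glucocorticoid receptor, had FPKM of 14.8, 8.37 and 8.27 in Con mice and 50.9, 50.05 and 67.8 in CR mice (log2 fold change 2.35 ± 0.28, adjusted p = 3.0e-04). Tat, the tyrosine aminotransferase classically induced by glucocorticoids, had 352, 275 and 593 in Con mice and 1624, 902 and 1330.2 in CR mice (log2 fold change 1.69 ± 0.29, adjusted p = 0.00287). Zbtb16, a zinc finger repressor, had 4.37, 4.43 and 1.599 in Con mice and 20.6, 9.901 and 21.5 in CR mice (log2 fold change 2.04 ± 0.32, adjusted p = 0.00165). In each of these genes the 3 CR mice lay above the 3 Con mice. Tsc22d3, also called GILZ, had 27.5, 28.6 and 57.3 in Con mice and 64.6, 66.4 and 74.1 in CR mice (log2 fold change 0.92 ± 0.25, adjusted p = 0.0281, lost without Con10). The glucocorticoid response element, searched as GNACA and TGTNC with 3 bases between them on either strand, was in 1 of 13 matched promoters of this list and in 0.225% of all 7545. That promoter was of Mt1, a metallothionein among the higher genes (log2 fold change 1.01). Klf9 fell instead, by 0.46 ± 0.12 (adjusted p = 0.0187). Mt2, another metallothionein, was uneven among Con mice, at 242, 45.4 and 54.4 in Con mice and 136, 203 and 222 in CR mice, and fell short of the threshold (log2 fold change 1.11 ± 0.50, adjusted p = 0.154).

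The clock genes changed in both directions. Nr1d1, the repressor REV-ERB alpha, had FPKM of 53.7, 40.7 and 57.4 in Con mice and 9.91, 8.94 and 9.702 in CR mice, 5.31-fold lower (log2 fold change -2.28 ± 0.14, adjusted p = 4.0e-06), with tight values in both groups. Cry1, a late repressor, had 1.51, 1.78 and 1.79 in Con mice and 8.51, 6.48 and 7.18 in CR mice (log2 fold change 1.63 ± 0.16, adjusted p = 7.6e-05). Clock, the core activator, had 4.75, 5.32 and 5.38 in Con mice and 2.399, 2.44 and 3.12 in CR mice (log2 fold change -0.76 ± 0.15, adjusted p = 0.00572), and Per2 had 4.65, 4.53 and 5.502 in Con mice and 11.5, 9.92 and 10.2 in CR mice (log2 fold change 0.97 ± 0.15, adjusted p = 0.00132). Bhlhe41, a repressor also named DEC2, had 2.24, 1.35 and 2.96 in Con mice and 0.208, 0.412 and 0.336 in CR mice (log2 fold change -1.24 ± 0.18, adjusted p = 9.0e-04). Usp2, a deubiquitinase under clock control, rose by 1.12 ± 0.30. Dbp, a clock output, had 58.96, 50.02 and 70.2 in Con mice and 44.1, 55.3 and 44.1 in CR mice with overlapping groups (log2 fold change -0.31 ± 0.29, adjusted p = 0.496), and Per3 and Tef were at 0.28 and 0.27 without passing. Counted over both lists, 6 genes were higher and 3 lower of 19. Because the hour is not stated, a shift of phase and a change of mean level cannot be told apart. The E-box CACGTG, which CLOCK and BMAL1 bind, was in 3 of 11 matched promoters of the repressor and output genes and in 8.79% of all 7545. Cry1 was not in that list but in that of the activators. At day 25 the log2 fold changes of Nr1d1, Cry1 and Per2 had the same signs, at -2.37, 1.47 and 1.35. The median of the activator list was 0.42 at day 25 and 0.48 at day 30. Because this list held the repressor Cry1 beside Clock, its median is not that of activators alone. That of the repressor and output list was 0.35 and 0.18.

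Lipid genes moved in a mixed pattern with a few large changes. Lpin1 (chr12:16535669-16589770), a phosphatidate phosphatase and coactivator of fatty acid oxidation, had FPKM of 14.8, 27.01 and 20.4 in Con mice and 171, 123 and 232 in CR mice, 8.45-fold higher (log2 fold change 3.01 ± 0.38, adjusted p = 4.9e-04). Thrsp, also called Spot 14 and tied to lipogenesis, had 53.1, 67.98 and 101 in Con mice and 381, 387 and 273 in CR mice (log2 fold change 2.24 ± 0.25, adjusted p = 1.7e-04). Of 18 fatty acid synthesis genes, 6 were higher and 1 lower. Elovl6, which elongates palmitate, had 7.11, 8.72 and 7.75 in Con mice and 14.9, 16.2 and 15.9 in CR mice (log2 fold change 0.92 ± 0.09, adjusted p = 8.6e-05), and Acacb, the acetyl-CoA carboxylase at mitochondria, had 3.83, 5.49 and 7.99 in Con mice and 16.03, 12.1 and 12.4 in CR mice (log2 fold change 1.14 ± 0.23, adjusted p = 0.00589). Acaca, its cytosolic form, rose by 0.50 ± 0.10, while Fasn, fatty acid synthase, had 25.6, 20.4 and 41.01 in Con mice and 41.9, 29.9 and 43.99 in CR mice and fell short of the threshold (log2 fold change 0.44 ± 0.21, adjusted p = 0.171). Scd1, a desaturase, also overlapped, at 387, 290.2 and 609 in Con mice and 217, 364 and 305 in CR mice (log2 fold change -0.50 ± 0.47, adjusted p = 0.486). The 1 fall was that of Insig2, which holds the regulators of this pathway in the endoplasmic reticulum, with 73.8, 56.3 and 78.1 in Con mice and 30.1, 24.8 and 27.4 in CR mice (log2 fold change -1.300 ± 0.24, adjusted p = 0.00351).

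Among 29 genes of triglyceride assembly and lipid droplets, 6 were higher and 7 lower. Plin2, the main droplet coat protein, had FPKM of 203, 165 and 141 in Con mice and 92.2, 87.3 and 76.4 in CR mice (log2 fold change -0.97 ± 0.13, adjusted p = 7.6e-04), whereas Plin5, which joins droplets to mitochondria, had 20.7, 15.7 and 11.5 in Con mice and 32.3, 26.7 and 37.6 in CR mice (log2 fold change 0.99 ± 0.21, adjusted p = 0.00712). These coat proteins thus went in opposite directions. Lpin2 rose by 0.92 ± 0.16, and Lpl, lipoprotein lipase, fell by 1.01 ± 0.26. The 5 adipocyte markers summed to 2.36 to 8.15 in Con mice and 0.794 to 1.56 in CR mice, and their part in these values was not tested. The 7 falls were 3 without CR10 or Con10 and 4 without Con12, and the 6 rises 4 without CR10. Fatty acid oxidation and ketogenesis gave 6 higher and 6 lower of 41 genes, with a median of 0.05. Ppargc1a, a coactivator of mitochondrial genes, had 1.79, 2.13 and 3.03 in Con mice and 8.22, 3.902 and 6.63 in CR mice (log2 fold change 1.097 ± 0.24, adjusted p = 0.00998), and Pdk4, which shuts off pyruvate oxidation, had 0.724, 0.45 and 0.851 in Con mice and 2.89, 1.44 and 3.20 in CR mice (log2 fold change 1.03 ± 0.29, adjusted p = 0.0304, lost without CR10). Cpt1a, the gate of mitochondrial fat oxidation, overlapped between the groups, at 144, 122 and 121 in Con mice and 126, 143 and 143 in CR mice (log2 fold change 0.10 ± 0.15, adjusted p = 0.704). Acsl1, an acyl-CoA synthetase, fell by 0.91 ± 0.23. The 6 rises of this list were 2 without CR10 and 10 with median-ratio scaling, against 5 falls.

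Of 25 genes of cholesterol synthesis and uptake, 6 were lower and none was higher, with a median of -0.22 at day 30 and 0.25 at day 25. By mouse at day 30, the list's median deviation from the Con mean was -0.42 to 0.42 in Con mice. In CR mice it was -0.37 to -0.08, inside the Con range. Hmgcs1, which makes the precursor of mevalonate, had FPKM of 125, 80.9 and 211 in Con mice and 43.6, 54.7 and 64.8 in CR mice (log2 fold change -1.25 ± 0.34, adjusted p = 0.0282), Sqle, squalene epoxidase, had 32.4, 25.3 and 48.96 in Con mice and 13.7, 19.01 and 25.4 in CR mice (log2 fold change -0.83 ± 0.25, adjusted p = 0.0399), and Hsd17b7, a later enzyme, had 25.7, 20.5 and 32.7 in Con mice and 10.2, 14.6 and 15.9 in CR mice (log2 fold change -0.90 ± 0.20, adjusted p = 0.0104). Con12 was the highest mouse for all 3 genes. The list's count fell from 6 to 1 without CR10 and to 1 without Con12, where 2 genes were higher, and the calls of Hmgcs1 and Sqle were lost without either mouse. The sterol regulatory element TCACNCCAC, searched on both strands, was in 1 of 17 matched promoters of this list, that of Hmgcs1, and in 1.15% of all 7545. The stretch of 90 bases around it, at chr13:119690173-119690262 on the plus strand (RefSeq, GRCm38.p6, the assembly of mm10), is shown with the element in capitals.
Hmgcs1: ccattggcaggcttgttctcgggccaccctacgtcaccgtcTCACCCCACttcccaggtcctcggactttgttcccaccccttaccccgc

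Bile acid synthesis shifted at named steps. Of 18 tested genes, 2 were higher (1 without CR10, CR11, CR12 or Con11, 4 with median-ratio scaling) and 6 lower. Cyp8b1 (chr9:121914356-121916305), the 12-alpha-hydroxylase that sets the share of cholic acid, had FPKM of 361, 159.96 and 329 in Con mice and 17.4, 47.3 and 40.8 in CR mice, 8.06-fold lower (log2 fold change -3.01 ± 0.38, adjusted p = 4.5e-04). It was at -0.84 at day 25 (adjusted p = 0.19), and the difference between the days did not pass an adjusted p under 0.1. Hsd3b7, the enzyme after the first hydroxylation, had 209, 172 and 188 in Con mice and 53.3, 78.4 and 53.3 in CR mice (log2 fold change -1.62 ± 0.16, adjusted p = 9.5e-05). Acox2, which shortens the side chain in peroxisomes, had 87.7, 78.9 and 84.1 in Con mice and 38.7, 47.4 and 38.4 in CR mice (log2 fold change -0.998 ± 0.12, adjusted p = 4.0e-04), and Scp2, a thiolase and sterol carrier, fell by 0.89 ± 0.20. Cyp39a1, an oxysterol hydroxylase, rose instead, with 13.7, 7.37 and 12.5 in Con mice and 37.4, 24.4 and 40.4 in CR mice (log2 fold change 1.53 ± 0.28, adjusted p = 0.00395). Cyp7a1, the rate-limiting enzyme, had 40.9, 27.2 and 61.7 in Con mice and 16.98, 25.6 and 29.4 in CR mice, with CR12 inside the Con range, and fell short of the threshold (log2 fold change -0.78 ± 0.35, adjusted p = 0.147). Of 16 transporters, 3 were higher and 4 lower. Abcb1a, a drug efflux pump, had 0.572, 0.73 and 1.66 in Con mice and 5.62, 3.70 and 5.06 in CR mice (log2 fold change 1.57 ± 0.18, adjusted p = 2.7e-04), and Abcg5 and Abcg8, the pair that exports sterols into bile, rose by 0.66 ± 0.10 and 0.46 ± 0.10. The 4 falls among transporters were 1 without CR10 or Con10 and 2 without Con11, Con12 or CR12, and median-ratio scaling gave 5 rises and 1 fall.

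Genes of gluconeogenesis, glycolysis and glycogen that passed were higher but for 1. Of 38 tested, 15 were higher and 1 lower, with a median of 0.24. Pck1, the rate-limiting enzyme of gluconeogenesis, had FPKM of 1209, 1154 and 1094 in Con mice and 2731, 1857 and 2509.7 in CR mice (log2 fold change 1.02 ± 0.18, adjusted p = 0.00344). Gys2, liver glycogen synthase, had 60.4, 68.1 and 68.9 in Con mice and 112, 137 and 127 in CR mice (log2 fold change 0.92 ± 0.14, adjusted p = 0.00155), and Ppp1r3b, which directs the phosphatase that activates it, had 24.97, 23.6 and 29.4 in Con mice and 43.4, 57.6 and 56.4 in CR mice (log2 fold change 0.98 ± 0.21, adjusted p = 0.00899). Each of these genes was higher in all 3 CR mice than in any Con mouse. Ppp1r3g, a related glycogen-targeting subunit, rose from 0.127, 0.387 and 0.231 to 22.6, 2.95 and 6.47 (log2 fold change 2.83 ± 0.57, adjusted p = 0.00612), with CR10 far above the other CR mice. Pfkfb1, which sets the balance of glycolysis and gluconeogenesis, rose by 0.90 ± 0.13. G6pc, glucose-6-phosphatase, overlapped between the groups, at 0.48 ± 0.31. The 1 fall was that of Gpd1, glycerol-3-phosphate dehydrogenase, with 149, 142 and 96.9 in Con mice and 41.1, 66.3 and 51.8 in CR mice (log2 fold change -1.27 ± 0.21, adjusted p = 0.00195). Gapdh was under the filter, with 11 to 27 reads per day 30 library. Whether the counting lost reads of this gene to close copies was not tested, so these values do not give its level. Of 28 genes of the TCA cycle and pyruvate use, 13 were higher (8 without CR10) and 1 lower, with a median of 0.22. Pdk1, which inhibits pyruvate dehydrogenase, had 14.6, 12.4 and 20.3 in Con mice and 31.0, 32.6 and 27.96 in CR mice (log2 fold change 0.93 ± 0.16, adjusted p = 0.00245).

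Amino acid breakdown gave 12 higher and 9 lower of 66 genes, with a median of 0.09. Besides Tat, Got1, the cytosolic aspartate aminotransferase, had FPKM of 103, 63.4 and 131 in Con mice and 421, 238 and 299 in CR mice (log2 fold change 1.702 ± 0.28, adjusted p = 0.00216). Sds, serine dehydratase, had 134, 94.2 and 206 in Con mice and 422, 267 and 288 in CR mice (log2 fold change 1.21 ± 0.27, adjusted p = 0.0112). These enzymes feed carbon to gluconeogenesis or the TCA cycle, and Got1 and Sds were higher in each CR mouse than in any Con mouse. Csad, the enzyme that makes hypotaurine on the way to taurine, fell most in this list, with 211, 156 and 100.1 in Con mice and 8.09, 61.02 and 20.9 in CR mice (log2 fold change -2.695 ± 0.52, adjusted p = 0.00515). It was at -0.40 at day 25, and the difference between the days did not pass an adjusted p under 0.1. Cbs, of transsulfuration, and Amt, of glycine cleavage, fell by 0.62 ± 0.11 and 0.87 ± 0.13. The 12 rises were 7 without Con11 and 22 with median-ratio scaling. In the urea cycle, 2 of 8 genes passed, Cps1 at 0.48 ± 0.17 (adjusted p = 0.0705) and Ass1 at 0.58 ± 0.21 (adjusted p = 0.0745), and the call of Cps1 was lost without any 1 mouse but Con12, that of Ass1 without any but Con12 or CR11. Of 15 tested genes of nitric oxide handling and tetrahydrobiopterin, 3 were higher (1 without CR10, CR11 or Con11, 6 with median-ratio scaling) and 1 lower. Nostrin, which traffics the endothelial synthase, had 8.98, 8.39 and 9.52 in Con mice and 6.97, 7.36 and 6.25 in CR mice (log2 fold change -0.34 ± 0.09, adjusted p = 0.0186), and Adh5, which reduces S-nitrosoglutathione, had 206, 191 and 214 in Con mice and 276, 291 and 244 in CR mice (log2 fold change 0.40 ± 0.11, adjusted p = 0.0286). The 3 synthase genes Nos1, Nos2 and Nos3 were under the filter.

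Some genes of ribosomal proteins and of the respiratory chain were higher by small amounts, and how many depended on single mice. Of 67 tested genes of the cytosolic ribosome, 27 were higher and none was lower, with a median of 0.43. Of 75 genes of the respiratory chain and ATP synthase, 32 were higher and none was lower, with a median of 0.35. Genes of the mitochondrial ribosome gave 1 higher and 1 lower of 75, with a median of 0.08, and 10 higher without CR12. Rpl3 had FPKM of 4.89, 7.298 and 7.17 in Con mice and 10.7, 11.1 and 9.24 in CR mice (log2 fold change 0.62 ± 0.13, adjusted p = 0.0088), and Rplp0 had 79.8, 81.9 and 78.7 in Con mice and 99.5, 100.2 and 96.2 in CR mice without passing (log2 fold change 0.30 ± 0.12, adjusted p = 0.116). Ndufa5, of complex I, had 107, 104 and 109 in Con mice and 181, 157 and 124 in CR mice (log2 fold change 0.51 ± 0.13, adjusted p = 0.0216), and Sdhb, of complex II, had 144, 123 and 147 in Con mice and 225, 202 and 161 in CR mice (log2 fold change 0.50 ± 0.15, adjusted p = 0.0443, lost without Con11, CR10 or CR11). In Ndufa5 and Sdhb, CR12 was the CR mouse nearest to the Con mice.

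In both sets CR10 and CR11 lay further from the Con mean than CR12. The median deviation of the ribosomal protein genes from the Con mean was 0.09, -0.002 and -0.08 in Con mice and 0.58, 0.53 and 0.10 in CR mice. That of the respiratory chain was 0.03, -0.04 and -0.0032 in Con mice and 0.50, 0.42 and 0.11 in CR mice. The count of higher ribosomal protein genes was 2 without CR10, 6 without CR11, 47 without CR12, and 14, 11 and 8 without Con10, Con11 and Con12. Without Con11, 1 of them was lower. The count of respiratory chain genes was 5 without CR10 or CR11, 9 without Con10, 8 without Con11 and 12 without Con12, and 49 with median-ratio scaling. Exon length moved with the same libraries. The members have short transcripts, with 50 of the 67 and 51 of the 75 under 1000 bases. Among 1055 other genes under 1000 bases, the median deviation was 0.11, 0.12 and -0.14 in CR10, CR11 and CR12, and the median log2 fold change 0.03, with 7.58% higher and 8.63% lower. Among 2671 other genes over 4000 bases, it was -0.12, with 6.48% higher and 20.3% lower. The part of transcript length in these results was not tested. Another 15 ribosomal protein genes were under the filter, and these genes have many near-identical processed copies in the genome. Some tested members rested on few reads, with 75, 70 and 76 in Con mice and 129, 92 and 82 in CR mice for Rps6. Whether the counting lost reads of these genes was not tested.

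**Figure D4:**
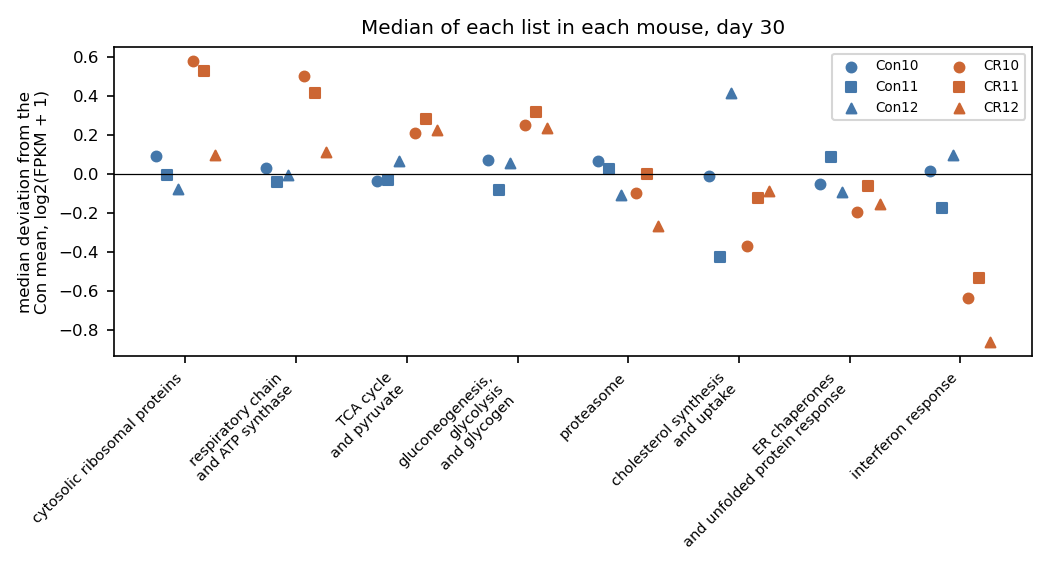
Median over the members of 8 gene lists of each day 30 mouse's deviation from the Con mean, in log2(FPKM + 1) (vertical axis), with Con mice in blue and CR mice in orange and 1 symbol per mouse. For ribosomal proteins and the respiratory chain CR12 lies near the Con mice and CR10 and CR11 above; for the interferon response all 3 CR mice lie below the Con mice.

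Of 35 genes of the endoplasmic reticulum (ER) and its unfolded protein response, 9 were lower and 3 higher, with a median of -0.09. With median-ratio scaling 8 were lower and 8 higher, and with quantile normalization 10 and 5. Hspa5, the chaperone BiP, had FPKM of 184, 222 and 221 in Con mice and 154, 156 and 157 in CR mice (log2 fold change -0.42 ± 0.10, adjusted p = 0.0152). Hyou1, a large ER chaperone, had 28.8, 43.9 and 31.3 in Con mice and 19.1, 19.2 and 20.01 in CR mice (log2 fold change -0.78 ± 0.13, adjusted p = 0.00245), and Pdia4, a disulfide isomerase, had 69.9, 76.98 and 56.7 in Con mice and 43.9, 43.9 and 40.1 in CR mice (log2 fold change -0.65 ± 0.11, adjusted p = 0.00293). In these genes the CR mice were nearly equal and all below the Con mice. Xbp1, a transcription factor of the response, fell by 0.52 ± 0.15 (lost without Con11 or CR10), and Creld2 by 0.55 ± 0.20 (lost without Con11, CR10, CR11 or CR12, and with median-ratio scaling or quantile normalization). Herpud1, which aids the removal of misfolded proteins, rose, with 177, 161 and 186 in Con mice and 262, 313 and 334 in CR mice (log2 fold change 0.79 ± 0.15, adjusted p = 0.0055). The ER stress element, searched as CCAAT and CCACG with 9 bases between them on either strand, was in 8 of 24 matched promoters of this list and in 0.199% of all 7545, with 2 of the 6 that fell among them. These are Hspa5, at chr2:34771989-34772078 on the plus strand, and Creld2, at chr15:88819484-88819573 on the plus strand, shown over 90 bases with the element in capitals.
Hspa5: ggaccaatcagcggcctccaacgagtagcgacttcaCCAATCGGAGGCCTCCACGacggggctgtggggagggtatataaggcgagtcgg
Creld2: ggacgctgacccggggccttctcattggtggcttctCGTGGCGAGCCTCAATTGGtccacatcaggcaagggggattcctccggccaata

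Other lists of protein making and turnover held small numbers of called genes. Of 47 proteasome genes, 10 were lower and 1 higher. Psmd11 and Psmd14, subunits of the regulatory lid, had FPKM of 40.5, 39.4 and 35.9 in Con mice and 23.6, 27.05 and 24.8 in CR mice (log2 fold change -0.60 ± 0.09, adjusted p = 0.00102) and of 28.8, 28.9 and 26.95 in Con mice and 17.9, 20.3 and 16.7 in CR mice (log2 fold change -0.60 ± 0.09, adjusted p = 0.00164). The count was 4 without CR10, 6 without Con10 or CR12 and 5 without Con11. Of 36 tRNA synthetases, 5 were lower (3 without CR10, Con10 or Con11) and none was higher, with -0.45 ± 0.11 (adjusted p = 0.0142) for Lars and -0.44 ± 0.12 (adjusted p = 0.0266) for Tars. Translation factors gave 3 higher and 3 lower of 51, and the rises were 0 without CR10, CR11, Con11 or Con12 and 8 with median-ratio scaling. Eif4g3, a scaffold of the cap complex, had 10.6, 13.98 and 10.6 in Con mice and 6.33, 7.01 and 7.73 in CR mice (log2 fold change -0.66 ± 0.11, adjusted p = 0.0019), and Pdcd4, which blocks the helicase eIF4A, fell by 0.61 ± 0.11. Of 32 genes of mTORC1 and nutrient sensing, 2 were higher (1 without Con12) and 4 lower, against 3 and 1 with median-ratio scaling or quantile normalization. Ddit4, also called REDD1 and an inhibitor of mTORC1, had 1.77, 1.395 and 2.98 in Con mice and 12.3, 11.9 and 17.01 in CR mice (log2 fold change 2.29 ± 0.39, adjusted p = 0.00256), each CR mouse above all Con mice. Mtor itself had 7.68, 7.76 and 7.17 in Con mice and 4.79, 6.37 and 6.28 in CR mice (log2 fold change -0.33 ± 0.11, adjusted p = 0.0617, lost without Con10, Con11 or CR10 and with median-ratio scaling or quantile normalization). The 4 falls of that list were 0 without Con10 and 1 without CR10 or Con11. In the integrated stress response, 2 of 19 genes were higher and 3 lower (1 and 2 without Con12). Atf5 fell from 143, 73.7 and 84.8 to 47.2, 46.01 and 41.7 (log2 fold change -1.08 ± 0.22, adjusted p = 0.00707), Cebpb rose by 0.71 ± 0.16, and Atf4 and Ddit3 were at -0.13 and 0.31 without passing. Of 50 autophagy and lysosome genes, 2 were higher and 6 lower. The falls were 2 without CR10 and 3 without Con10 or Con12, the rises 1 without CR10, CR11, Con10 or Con11, and median-ratio scaling turned the balance to 7 higher and 4 lower. Among the falls were Sqstm1, the cargo receptor p62, with 184, 156 and 172 in Con mice and 118, 111 and 110.2 in CR mice (log2 fold change -0.59 ± 0.12, adjusted p = 0.00754), and Atg7, which activates the conjugation steps, at -0.57 ± 0.12 (adjusted p = 0.00848).

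Most interferon-induced genes above the filter were lower. Of 28 tested members, 18 were lower and none was higher, with a median of -0.69, and 7 further members were under the filter. These genes are switched on by type I or type II interferon and act against viruses and intracellular microbes. Ifi47, an immunity-related GTPase, had FPKM of 7.54, 8.41 and 7.49 in Con mice and 1.59, 2.42 and 1.34 in CR mice (log2 fold change -1.68 ± 0.15, adjusted p = 4.1e-05). Irgm2, of the same family, had 23.2, 12.2 and 14.3 in Con mice and 4.41, 7.38 and 4.28 in CR mice (log2 fold change -1.45 ± 0.22, adjusted p = 0.00132), and Iigp1, the most abundant of the genes named here, had 72.7, 114 and 105 in Con mice and 35.1, 51.1 and 39.7 in CR mice (log2 fold change -1.19 ± 0.20, adjusted p = 0.00225). None of the 3 genes overlapped between the groups. Oasl1 had 4.27, 3.97 and 4.91 in Con mice and 0.649, 1.68 and 0.992 in CR mice (log2 fold change -1.38 ± 0.21, adjusted p = 0.00118), Ifit1, which binds viral RNA, had 2.17, 2.24 and 4.08 in Con mice and 0.553, 0.625 and 0.553 in CR mice (log2 fold change -1.24 ± 0.17, adjusted p = 8.1e-04), and Isg15, the ubiquitin-like modifier, had 6.103, 5.42 and 9.201 in Con mice and 2.74, 3.83 and 1.88 in CR mice (log2 fold change -1.05 ± 0.27, adjusted p = 0.0209). Irf7, a transcription factor that amplifies the response, had overlapping values of 10.4, 10.6 and 11.1 in Con mice and 7.27, 15.1 and 7.63 in CR mice (log2 fold change -0.16 ± 0.22, adjusted p = 0.657).

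The interferon-stimulated response element, searched as a pair of GAAA tetramers with 2 bases between them on either strand, was in 9 of 19 matched promoters of the list and in 2.49% of all 7545. Among the 12 matched promoters of genes that fell it was in 6, and among the other 7 it was in 3. The stretches of 3 of the 6 genes follow, 90 bases each with the element in capitals, which covers overlapping matches in Isg15. They lie at chr4:156200841-156200930 on the minus strand for Isg15, chr19:34640754-34640843 on the plus strand for Ifit1 and chr11:58214873-58214962 on the plus strand for Irgm2. A match describes the letters of the window only.
Isg15: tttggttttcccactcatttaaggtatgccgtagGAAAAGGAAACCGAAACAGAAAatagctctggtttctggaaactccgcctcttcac
Ifit1: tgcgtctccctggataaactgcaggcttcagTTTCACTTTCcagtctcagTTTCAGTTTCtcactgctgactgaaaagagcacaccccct
Irgm2: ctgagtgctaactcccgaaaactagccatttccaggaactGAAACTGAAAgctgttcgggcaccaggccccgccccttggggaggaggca

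In genes of macrophages and antigen presentation the share of lower genes was close to the 16.4% of all genes. Of 23 tested, 4 were lower and 2 higher. H2-Ab1, a class II chain, had FPKM of 14.5, 10.96 and 9.88 in Con mice and 5.72, 8.201 and 4.41 in CR mice (log2 fold change -0.87 ± 0.23, adjusted p = 0.0228), and B2m, the light chain of class I, had 1444, 1617 and 1646 in Con mice and 1063, 1199 and 1151 in CR mice (log2 fold change -0.46 ± 0.11, adjusted p = 0.0157). Cd74, the invariant chain, fell by 0.82 ± 0.25 (lost without Con10 or CR12). The 4 falls were 2 without Con10 or CR12, and the 2 rises 0 without CR10 or Con12. Adgre1 and Clec4f, which mark macrophages and Kupffer cells, overlapped between the groups, at -0.12 ± 0.18 and -0.35 ± 0.20. None of the B cell markers passed the filter, and the 4 of 5 in the table summed to 1.15 to 1.77 in Con mice and 0.316 to 0.778 in CR mice, and the part of cell numbers in these falls was not tested. Genes of matrix, stellate cells and sinusoidal endothelium were higher in 9 and lower in none of 25 (5 without CR12 or Con11, 4 without Con12, and 2 lower without CR11), with a median of 0.31. Ecm1 had 42.8, 32.8 and 31.6 in Con mice and 60.3, 59.9 and 56.6 in CR mice (log2 fold change 0.72 ± 0.16, adjusted p = 0.00885), and Lum, the proteoglycan lumican, had 1.42, 1.88 and 1.44 in Con mice and 2.32, 3.33 and 3.77 in CR mice (log2 fold change 0.67 ± 0.15, adjusted p = 0.0103). The marker sums of endothelium and stellate cells given above moved the same way. Col5a3, a collagen chain outside this list, was lower, with 792, 859 and 808 reads in Con mice and 233, 201 and 210 in CR mice.

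Enzymes that clear drugs and toxins changed often. Of 35 glutathione transferases and glucuronosyltransferases, 17 were higher and 9 lower. Gstp1, which conjugates electrophiles and is male-biased in mouse liver, had FPKM of 478, 484 and 403 in Con mice and 98.05, 164 and 80.5 in CR mice (log2 fold change -2.05 ± 0.32, adjusted p = 0.00168), while its relative Gstp3 had 9.14, 7.79 and 8.96 in Con mice and 26.2, 23.2 and 15.6 in CR mice (log2 fold change 1.21 ± 0.18, adjusted p = 0.00106). Mgst3, a microsomal transferase, had 19.5, 14.9 and 22.4 in Con mice and 47.6, 43.5 and 35.2 in CR mice (log2 fold change 1.12 ± 0.16, adjusted p = 8.1e-04), and Gstm3 rose by 1.48 ± 0.38. Of 36 other P450 and flavin monooxygenase genes, 14 were higher and 3 lower. Cyp2a22 had 1.92, 0.466 and 2.26 in Con mice and 26.98, 14.2 and 14.1 in CR mice (log2 fold change 2.95 ± 0.37, adjusted p = 4.0e-04), Fmo2 had 4.08, 3.44 and 6.44 in Con mice and 18.2, 32.01 and 33.6 in CR mice (log2 fold change 2.34 ± 0.31, adjusted p = 6.8e-04), and Cyp26a1, which degrades retinoic acid, had 2.78, 5.05 and 2.03 in Con mice and 15.6, 37.95 and 6.99 in CR mice (log2 fold change 2.07 ± 0.51, adjusted p = 0.0179). Cyp3a11, the main drug-oxidizing P450 of the family, was lower, with 3446, 4081 and 4505 in Con mice and 2388, 2698 and 2463 in CR mice (log2 fold change -0.67 ± 0.17, adjusted p = 0.0214, lost with quantile normalization). Nr1i2, the xenobiotic receptor PXR, rose by 0.84 ± 0.14. Genes of the NRF2 and antioxidant response gave 1 higher (0 without CR10, CR11, Con11 or Con12, 2 without CR12) and 6 lower of 20. Gclc, which limits glutathione synthesis, had 111, 102 and 91.3 in Con mice and 41.7, 66.7 and 59.5 in CR mice (log2 fold change -0.87 ± 0.20, adjusted p = 0.0137), Srxn1, sulfiredoxin, had 18.4, 13.6 and 15.9 in Con mice and 7.41, 9.36 and 7.32 in CR mice (log2 fold change -0.91 ± 0.14, adjusted p = 0.0015), and Gsr, glutathione reductase, fell by 0.69 ± 0.11. Nqo1, a standard NRF2 target, had 8.095, 3.43 and 7.497 in Con mice and 9.47, 8.43 and 6.19 in CR mice (log2 fold change 0.35 ± 0.25, adjusted p = 0.348). Glutathione transferases have close copies, with which reads could be shared.

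Secreted proteins changed gene by gene. Hamp2 (chr7:30922372-30924181), the second hepcidin gene, had FPKM of 18.8, 12.3 and 28.5 in Con mice and 497, 143 and 176 in CR mice (log2 fold change 3.56 ± 0.41, adjusted p = 2.3e-04), and Hamp, the iron hormone itself, had 1196, 1223 and 1687 in Con mice and 1892, 2925 and 2012 in CR mice (log2 fold change 0.72 ± 0.25, adjusted p = 0.0637, lost without Con10, Con11 or CR11). Bmp6, the signal that induces hepcidin, had 1.21, 0.926 and 1.01 in Con mice and 2.67, 2.15 and 1.79 in CR mice (log2 fold change 0.64 ± 0.12, adjusted p = 0.00459), and Hfe2, its coreceptor hemojuvelin, had 40.9, 28.8 and 34.8 in Con mice and 20.5, 19.8 and 17.9 in CR mice (log2 fold change -0.80 ± 0.11, adjusted p = 9.3e-04). In the iron list, 5 of 18 were higher (3 without CR10, CR11, Con11 or Con12) and 4 lower (1 without CR10, 2 without CR12, Con10 or Con11), against 7 and 1 with median-ratio scaling. Among 27 acute-phase genes, 7 were higher and 4 lower. Saa1, serum amyloid A, had 46.5, 53.7 and 42.6 in Con mice and 11.9, 13.6 and 8.196 in CR mice (log2 fold change -2.01 ± 0.41, adjusted p = 0.00668), while Orm2 and Orm3, orosomucoids that carry drugs and steroids, rose from 5.86, 7.96 and 7.24 to 31.96, 35.98 and 26.95 (log2 fold change 2.02 ± 0.28, adjusted p = 7.6e-04) and by 2.53 ± 0.45. Il6ra, the receptor of interleukin 6, rose by 1.03 ± 0.16. Of 39 genes of complement and coagulation, 11 were lower (6 without CR10) and 4 higher (1 without CR10, 2 without CR11, Con11 or Con12). C9 and C6, of the membrane attack complex, had 169.9, 252 and 220.1 in Con mice and 46.7, 61.1 and 62.8 in CR mice (log2 fold change -1.89 ± 0.25, adjusted p = 6.8e-04) and 60.6, 86.6 and 55.7 in Con mice and 7.87, 19.7 and 13.7 in CR mice (log2 fold change -2.27 ± 0.37, adjusted p = 0.00206), and C8a and C8b fell by 1.24 ± 0.32 and 1.08 ± 0.28. C3, the hub of the cascade, rose, with 1474, 1482 and 1442 in Con mice and 2323, 1785 and 2447 in CR mice (log2 fold change 0.56 ± 0.14, adjusted p = 0.0211). Of 18 hepatokine genes, 3 were higher and 3 lower (1 without CR10 or Con10). Inhbe, which encodes the activin E subunit, had 32.7, 12.1 and 24.3 in Con mice and 4.24, 8.57 and 5.84 in CR mice (log2 fold change -1.68 ± 0.34, adjusted p = 0.00654), Lect2 rose by 0.77 ± 0.17, and Fgf21, a fasting hormone, stayed low, at 1.399, 0.249 and 0.235 in Con mice and 0.137, 0.327 and 0.455 in CR mice (log2 fold change -0.25 ± 0.26, adjusted p = 0.534). Of 19 apolipoprotein genes, 3 were higher (0 without CR10, Con11 or Con12, 1 without CR11) and 2 lower (1 without CR10, CR11, Con10 or Con11), with -0.90 ± 0.15 (adjusted p = 0.00216) for Apon. The call of Apoa4, at 36.2, 38.7 and 40.1 in Con mice and 136, 54.4 and 151 in CR mice (log2 fold change 1.41 ± 0.46, adjusted p = 0.0558), was lost without each mouse but CR11.

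Zonation genes and the remaining lists showed no common direction. Of 18 pericentral genes, 1 was higher and 3 were lower (2 and 2 without CR10 or Con10), and of 17 periportal genes, 4 were higher (2 without CR10, CR12 or Con10) and 2 lower (0 without CR11 or Con12, 1 without CR10 or Con11), with medians of -0.01 and 0.04. Of 18 genes of insulin and FOXO signalling, 2 were higher and 1 lower (0 without CR10, Con10 or Con12). Foxo1, which drives fasting genes, had FPKM of 9.37, 9.72 and 9.73 in Con mice and 16.9, 15.999 and 20.4 in CR mice (log2 fold change 0.82 ± 0.14, adjusted p = 0.00249), whereas Irs2, an insulin receptor substrate, was at 0.34 ± 0.22 (adjusted p = 0.32). Of 20 genes of sirtuins and NAD metabolism, 4 were higher and 4 lower (2 without CR10, CR12 or Con11). Nampt, the rate-limiting enzyme of NAD salvage, had 13.5, 22.4 and 17.4 in Con mice and 30.6, 36.9 and 42.4 in CR mice (log2 fold change 1.02 ± 0.16, adjusted p = 0.0015), and Sirt1, an NAD-dependent deacetylase, was at 0.11 ± 0.17 (adjusted p = 0.707). Among 15 cell cycle genes above the filter, 2 were higher and 3 lower, while 18 others, Mki67 and Top2a included, stayed below it. Heat shock genes gave 2 higher and 2 lower of 26, against 0 and 0 without CR10, 1 and 1 without CR11, 3 and 1 without CR12, 1 and 3 without Con10 or Con12, 3 and 0 without Con11 and 3 and 0 with median-ratio scaling, and haem genes none higher and 2 lower of 12 (1 lower without CR11, CR12, Con10 or Con12). Rgs16, which dampens G protein signals and follows fasting, was the 1 gene among the 10 largest rises that no list held, with 13.7, 5.46 and 15.5 in Con mice and 51.5, 129.7 and 76.1 in CR mice (log2 fold change 2.802 ± 0.52, adjusted p = 0.00403).

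Most day 30 changes had the same sign at day 25, as did 227 of the 234 genes. These genes were chosen on their day 30 values, so their sizes on the 2 days are not compared. At day 25, 1582 genes (14.9%) passed an adjusted p under 0.1, 593 of them higher (5.6%) and 989 lower (9.34%). For each male-biased, female-biased and Mup gene set the median was nearer to 0 at day 25, at -0.88, 0.76 and -2.51. The effects are not shown to differ between the days, because the difference between the 2 effects passed an adjusted p under 0.1 in 1 of 10593 genes (0.00944%), and 366 genes had an unadjusted p under 0.05. That gene was Snord55, a small nucleolar RNA, whose values stood for 0 to 3 reads in each of the 12 libraries. Snord45c, with 0 to 9 reads, had an adjusted p of 0.206 for the difference. Of the others with the smallest p, Elovl6 was at 0.05 at day 25 (adjusted p = 0.77) and 0.92 at day 30, a difference of 0.86 ± 0.13 (adjusted p = 0.104). Its Con and CR reads were 654 to 773 and 645 to 897 at day 25, and 865 to 1105 and 1877 to 2211 at day 30. A1bg was at 0.31 and 1.69 (adjusted p of the difference = 0.176), Mup7 at -2.51 and -5.28 (0.307), Col5a3, a collagen chain, at -0.60 and -1.49 (0.206), Cldn14, a claudin, at -0.05 and -0.87 (0.257), and Csrnp1, a nuclear protein, at 0.25 and -0.63 (0.826).

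**Figure D5:**
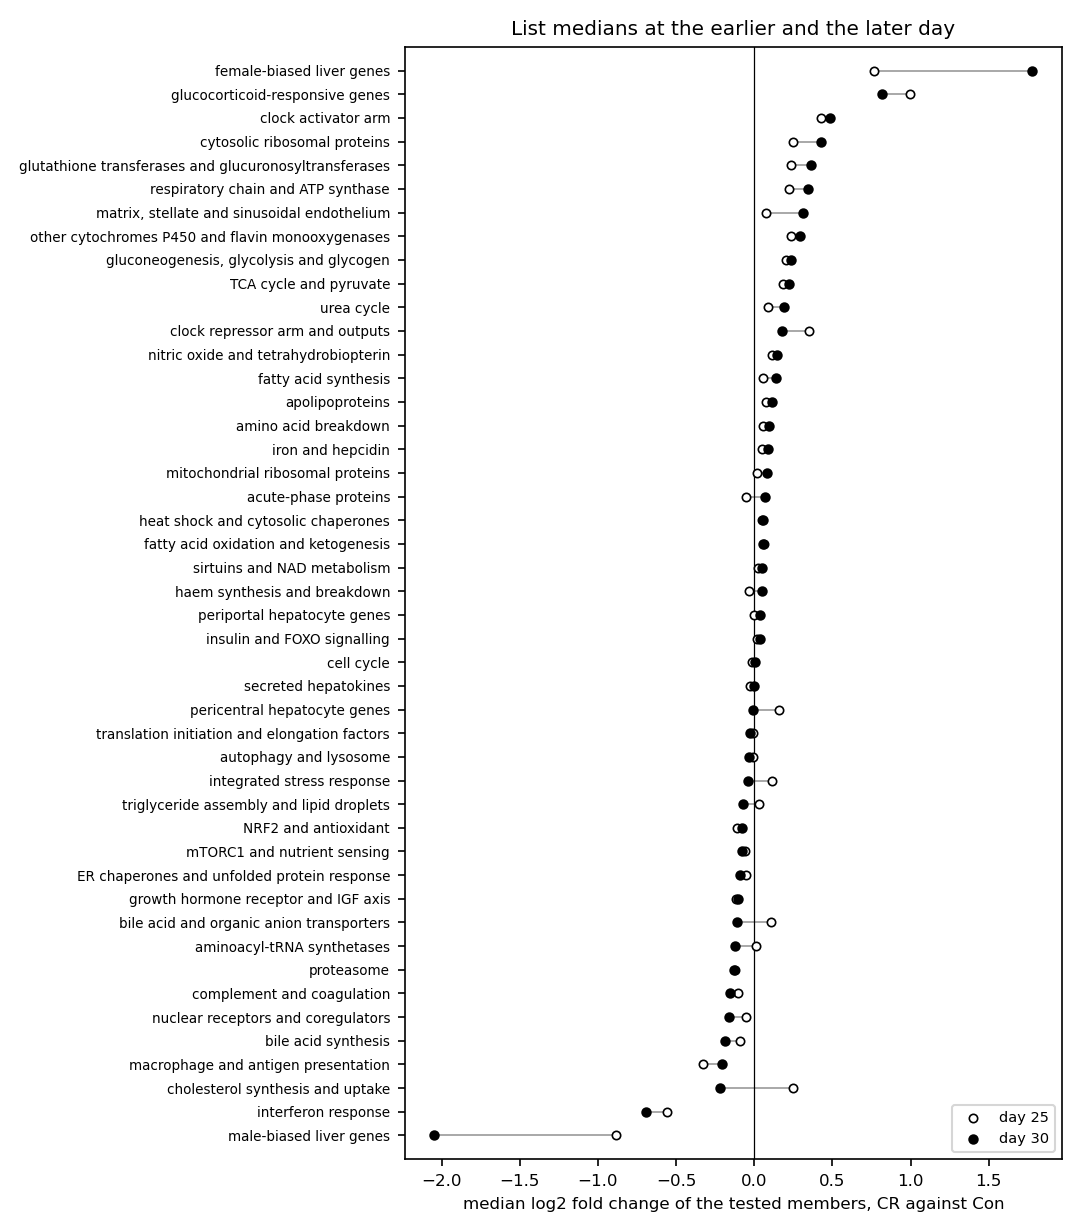
Median log2 fold change of the tested members of 46 gene lists (rows, the Mup list left out for scale) at day 25 (open circles) and day 30 (filled circles), in order of the day 30 value. Female-biased genes moved from 0.76 to 1.78, male-biased genes from -0.88 to -2.05 and cholesterol genes from 0.25 to -0.22; these shifts were not tested as sets.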

How the data were processed

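Livers were sequenced as 100 base paired-end reads on a HiSeq 4000. The authors processed reads with CASAVA 1.8.2 and FastQC and mapped them to mm10 with BWA, and per the file headers HOMER counted reads on exons, kept 1 transcript per gene and divided by exon length and library reads, which gave the deposited FPKM values with no further scaling between libraries. The columns of the Con mice at day 30 are replicates whose sample labels do not tell them apart.

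From these, log2(FPKM + 1) of 10593 genes of 24537, those with 3 or more of the 12 libraries at an FPKM of 1 or above, was fitted with limma 3.58.1 (R 4.3.3) in 1 model of 4 groups, with a mean-variance trend and Benjamini-Hochberg adjustment over all genes tested. In the low FPKM values checked, at least 99.9% came out as whole reads in every library. The fit was run on simulated data with known changes above the log2 threshold of 1 and noise drawn independently for each gene and library. That run does not cover smaller changes or deviations shared across a library. The members and the gene lists were chosen with earlier results of these data known, and no list was tested as a set. Named genes were key members of each list, up to 4 other called members with the largest changes, the 10 largest rises and falls whose groups did not overlap, and the 8 smallest adjusted p-values of the difference between the days. Some items under this rule are not reported here. Promoters are RefSeq sequence (GRCm38.p6), searched over 250 bases before the start.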

Additional observations from a re-analysis of the deposited data

Results flagged for a closer look

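Snord55 was the 1 gene whose CR effects differed between the days (limma, adjusted p = 0.0833), with a difference of -1.685 on the log2(FPKM + 1) scale. Its log2 fold change was 1.25 at day 25 and -0.43 at day 30. The values stood for 0 reads in each Con mouse and 2 in each CR mouse at day 25, and for 1, 3 and 2 reads in Con mice and 1 in each CR mouse at day 30, so the depth does not resolve them.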

How the results depend on the processing

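The 234 genes past both thresholds became 385 with a pseudocount of 0.1, 422 with voom on the recovered reads, 1114 with a minimum log2 fold change of 0.5 and 2619 with none. Leaving out 1 day 30 library gave 202 to 286. At an adjusted p under 0.05, 1740 genes passed, 566 of them higher. Leaving out 1 library gave 1497 to 2292 genes at an adjusted p under 0.1, 517 to 859 of them higher and 980 to 1648 lower, with the lowest of each without CR10. The difference between the days held 1 gene, against 3 with a pseudocount of 0.1, 8 with a replicate block and 0 with a filter of 6 libraries, quantile normalization, voom or an adjusted p under 0.05, and 0 to 5 when 1 library was left out (5 without CR9). The cause of these changes was not tested. Of 149 called genes followed through these settings, 128 kept direction and call in every setting and none reversed. The call was lost at least once without 1 library in 19 of them, and under another setting in 11.

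Among the 23 named genes without a call, 8 gained a call in a setting. When 1 library was left out 5 changed sign, with ranges of -0.24 to 0.11 for Adgre1, -1.21 to 0.10 for Bcl6, -0.41 to 0.0655 for Fgf21, -0.47 to 0.0113 for Irf7 and -0.00457 to 0.22 for Sirt1.

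Replicate numbers came from the column names, which for Con mice at day 30 cannot be tied to single samples. Deviations of mice with the same number correlated at 0.0456 to 0.181 (mean 0.114) at day 30, with a mean of -0.0575 for different numbers, and at 0.106 to 0.368 (mean 0.26) at day 25, with -0.131. Deviations were taken from each group's own mean. The mean for different numbers therefore nearly follows from that for the same number and is no separate comparison. Each day 25 mouse correlated best with its own number, which at day 30 did not hold for Con11, CR11 and CR12. Because not every day 30 pair passed 0.1, the mice were not taken as paired, which does not show that they were unpaired. With the number as a replicate block 238 genes passed both thresholds, 233 of them shared with the fit without it, and 46 ribosomal protein and 53 respiratory chain genes were higher. With 3 mice per group and genes of few reads near 0, small changes at low levels were not detectable.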
